A study of Caenorhabditis elegans with 2 samples.

Results

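The genes examined were the major sperm protein and spermatogenesis genes of Caenorhabditis elegans, read against binding of the transcription factor CEBP-1 in whole young adults. They were all protein-coding genes of the WBcel235 annotation whose symbol begins with msp-, ssp-, spe- or nspd-, which gave 82 of 19973 protein-coding genes. There were 31 msp- genes, 12 ssp- genes, 29 spe- genes and 10 nspd- genes. The choice by symbol used no measured value, but it was made with earlier results of these data known. The symbol ssp-9 is carried by 2 of these genes. CEBP-1 binding was measured by chromatin immunoprecipitation followed by sequencing (ChIP-seq) with an antibody against GFP, in 2 biological replicates numbered 3 and 7. Both came from strain OP563, which carries the unc-119(tm4063) III mutation and the transgene wgIs563, and which makes CEBP-1 with a GFP and FLAG tag at its C-terminal end. The animals were labelled as mixed sex young adults, taken 63 h after synchronization from starved L1 larvae. There was no second group and no untagged strain analysed here, so every value describes the tagged strain. Chromatin of whole animals was used, so binding in sperm-forming cells cannot be told apart from binding in the rest of the body, and peak lists hold no RNA by which to check the cell types.

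Spermatogenesis makes small, crawling, amoeboid sperm in this nematode, in males throughout adult life and in hermaphrodites for a short time before they turn to making oocytes. The major sperm protein (MSP), encoded by the msp- genes, forms the filaments that drive sperm crawling and, when released, signals oocytes to mature and ovulate. The ssp- genes encode small sperm proteins with an MSP-like domain, and the nspd- genes encode short nematode-specific peptides. The spe- genes were named for mutants with defective sperm, and they act in assembling sperm, in activating them to crawl, in fertilisation and in the early embryo. ELT-1, a GATA factor, and SPE-44, a SAND-domain protein, are known regulators of sperm genes. CEBP-1 is a basic leucine zipper protein, best known for its part in neuronal stress and axon regrowth.

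A gene was scored as having a peak when a peak summit, the position of highest signal, lay from 1000 bp upstream to 200 bp downstream of its 5′ end. Of the 82 genes, 3 had such a summit in the optimal list, the authors' set of 5982 reproducible peaks, all of them spe- genes (spe-48, spe-46 and spe-39). That was 3.66% of the genes and 10.3% of the spe- family, beside 14.9% of all protein-coding genes. In a window from 2000 bp upstream to 500 bp downstream the count was 8, all among the 29 spe- genes, beside 19.8% of all protein-coding genes. The spe- share was thus below that of all genes in the main window and above it in the wider one. The other 3 families held none, with 0 of 31 msp- genes, 0 of 12 ssp- genes and 0 of 10 nspd- genes. In the longer pooled list of 30000 peaks and background regions, 9 of the 82 genes (11.0%) had a summit beside 28.8% of all protein-coding genes. These were 6 spe- genes (20.7% of that family) and 3 msp- genes. The single-replicate lists held a summit for 10 genes in replicate 3 (29.3% of all genes) and for 12 genes in replicate 7 (32.0% of all genes). In each of these lists 9 of the genes were spe- genes, or 31.0% of that family, and the rest were msp- genes. At least 1 replicate list held a summit for 16 genes (19.5%), beside 37.4% of all protein-coding genes. Among the 5982 strongest peaks of each replicate, a number matched to the optimal list, replicate 3 held a summit for 3 genes (15.7% of all genes) and replicate 7 for 4 genes (13.5% of all genes), all of them spe- genes. No ssp- or nspd- gene had a summit in any of the 4 lists. Over the 4 lists together 17 of the 82 genes (20.7%) had a summit, beside 37.9% of all protein-coding genes. By chromosome, the optimal summits fell at 2 of 19 of the genes on chromosome I (20.9% of all genes there), 0 of 16 on chromosome II (13.3%), 0 of 3 on chromosome III (23.0%), 0 of 37 on chromosome IV (14.2%) and 1 of 7 on chromosome V (10.5%). None of the 82 genes is on the X chromosome, where 11.9% of genes had one. The families differ in size and their genes are not replicates of a condition, so these shares are a description.

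**Figure D1:**
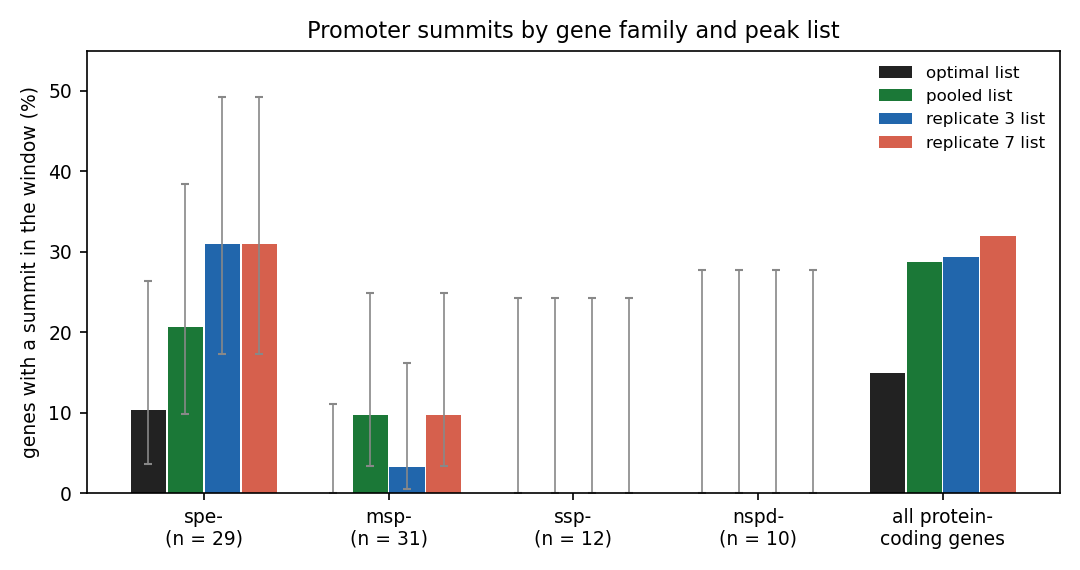
Share of genes with a summit in the promoter window (percent) by gene family and for all protein-coding genes, with a bar for each of the 4 peak lists and, for the families, 95% Wilson intervals that cover counting only. The spe- bars reach 31.0% in both replicate lists, the msp- bars stay at or below 9.68%, and the ssp- and nspd- bars are at 0.

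The lists differ in how sure their peaks are. Every optimal peak was among the 5982 strongest peaks of the pooled list, so the rest of the pooled list holds weaker regions. The peak signal, the authors' value for each peak, had a median of 299 in the optimal list and 54.1 in the pooled list, and the lowest pooled signal was 13.5. The median was 35.2 in the replicate 3 list and 31.8 in the replicate 7 list. The 2 replicate lists also differed at strong peaks, with a median signal at optimal peaks of 204 in replicate 3 and 112 in replicate 7. Signals of a replicate are therefore also given relative to that median. It was taken only over optimal peaks with a summit of that replicate within 100 bp, so 1 marks a typical optimal peak among those matched. The number of reads behind each list is unknown.

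The 31 msp- genes are short, with a median length of 384 bp, and lie on 2 chromosomes, with 13 on chromosome II and 18 on chromosome IV. Their promoter windows had no optimal summit, and the nearest optimal summit was a median of 22563 bp from the 5′ end, beside 9912 bp for all protein-coding genes. The 3 msp- genes in the pooled list lay near its lower end. The pooled signal was 20.0 for msp-33 (rank 26812, 160 bp upstream), 18.7 for msp-32 (rank 27439, 116 bp upstream) and 16.1 for msp-31 (rank 28705, 4 bp upstream). Their −log10 q-values, the authors' confidence score, were 0.222 for msp-33, 0.214 for msp-32 and 0.199 for msp-31, beside 3.88 for each of the 3 optimal spe- peaks. All 3 msp- signals were below the pooled median of 54.1. The pooled msp-33 and msp-31 summits lay in introns of other protein-coding genes, and the msp-32 summit lay between genes. The msp-33 summit recurred in replicate 7 with a signal of 24.7 (rank 19817) and was not in the replicate 3 list. For msp-31, replicate 3 had a summit 327 bp upstream with a signal of 38.4, and replicate 7 had one 133 bp downstream with a signal of 19.7, so the replicates did not share a position. The msp-32 summit was in neither replicate list. The only other msp- gene with a listed summit was msp-51, in replicate 7 alone, with a signal of 17.5 (rank 26609) 792 bp upstream. That msp-51 summit lay in a coding exon of another gene. No msp- summit was shared by the pooled list and both replicate lists.

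**Figure D2:**
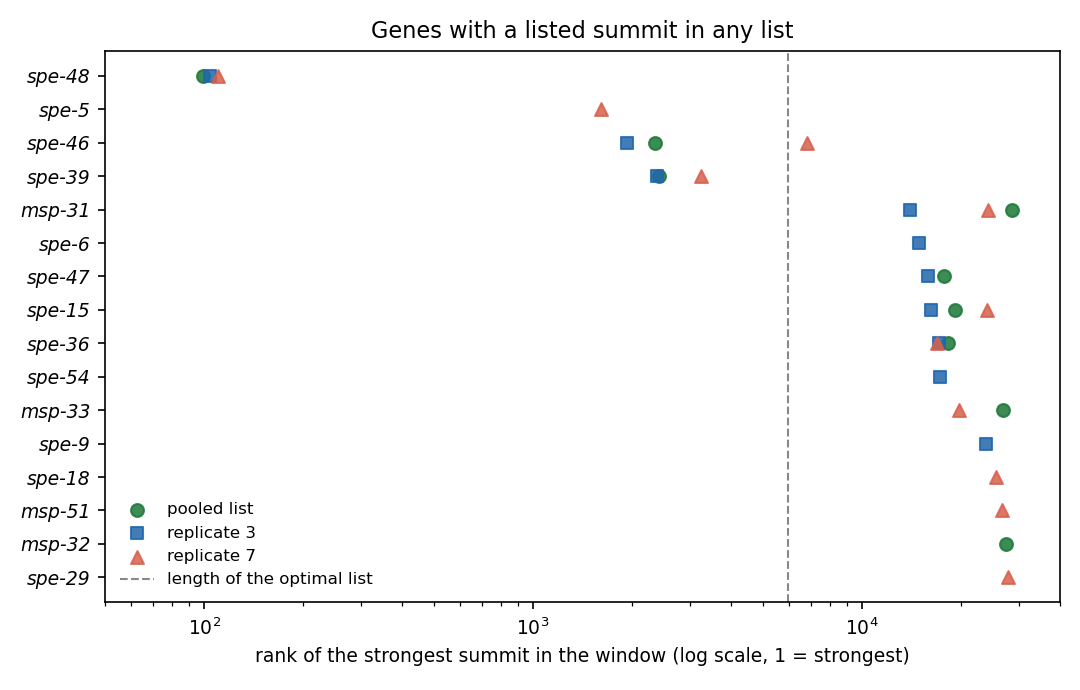
Rank of the strongest summit in the promoter window for 16 of the 17 genes with a listed summit, on a log axis with rank 1 as the strongest, in the pooled list and in each replicate list; the dashed line marks the 5982 peaks of the optimal list. spe-48 lies near rank 100 in all 3 lists, spe-46 and spe-39 lie left of the line in the pooled list, and the msp- points all lie far to its right.

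The msp- windows share part of their sequence with each other, and any effect of this on placing short reads was not tested. The DNA just upstream of several msp- genes is shown because a 6-base GATA word sits there at nearly the same place. Each stretch runs from 100 to 41 bp upstream of the annotated 5′ end in the direction of the gene, in WBcel235 (ce11), with GATAAG in capitals where present.
msp-3: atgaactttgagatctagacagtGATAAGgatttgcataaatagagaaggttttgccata
msp-33: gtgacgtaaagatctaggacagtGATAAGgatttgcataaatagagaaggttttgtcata
msp-31: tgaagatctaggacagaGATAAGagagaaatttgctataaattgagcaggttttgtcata
msp-152: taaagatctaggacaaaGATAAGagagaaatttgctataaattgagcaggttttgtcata
msp-64: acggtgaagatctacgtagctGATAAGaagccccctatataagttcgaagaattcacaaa
msp-19: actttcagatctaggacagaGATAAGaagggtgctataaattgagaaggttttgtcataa
msp-51: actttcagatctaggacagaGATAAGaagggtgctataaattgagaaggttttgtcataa
msp-10: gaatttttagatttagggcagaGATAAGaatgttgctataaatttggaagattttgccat
msp-142: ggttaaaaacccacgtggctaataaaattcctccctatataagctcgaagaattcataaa
They lie at chrII:4786322-4786381 (minus strand), chrII:4892735-4892794 (minus strand), chrII:4916603-4916662 (minus strand), chrII:4932927-4932986 (plus strand), chrII:5810371-5810430 (minus strand), chrIV:5260489-5260548 (plus strand), chrIV:5295381-5295440 (minus strand), chrIV:9837549-9837608 (plus strand) and chrII:5797827-5797886 (plus strand). The stretches of msp-19 and msp-51 are identical in all 60 bases, and msp-142 is shown as a promoter without the word in this stretch.

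GATAAG on either strand lay within 100 bp upstream of the 5′ end in 24 of 31 msp- genes (77.4%), all on the strand of the gene. Its first base was between 83 and 77 bp upstream of the annotated 5′ end in all 24. Whether that end is the start of transcription or of translation was not examined. The same word was found in 3 of 12 ssp- genes, 1 of 29 spe- genes, 1 of 10 nspd- genes and 1446 of 19973 protein-coding genes (7.24%). The word was looked for after the sequences had been seen, and msp- promoters share sequence, so the count describes the family and is no test. A match is not a bound site. Over the whole window the looser GATA motif (A or T, then GATA, then A or G) was found in 76 of the 82 genes, beside 93.3% of all protein-coding genes.

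Sequence uniqueness was measured as the share of overlapping 30-base words in a promoter window that occur once in the 6 nuclear chromosomes. The window includes 200 bp downstream of the 5′ end, so it takes in sequence of the gene itself as well as the DNA upstream. The upstream and downstream parts were not measured apart, so a low share in a family of similar genes is not a value for the promoter alone. Its median was 76.3% for msp- genes (14.5% to 89.7%), 90.9% for ssp- genes, 79.5% for nspd- genes and 100% for spe- genes, beside 100% for all protein-coding genes. None of the 31 msp- windows reached 95%, while 24 of 29 spe- windows, 4 of 12 ssp- windows and 4 of 10 nspd- windows did. The lowest values were 14.5% for msp-19, 20.3% for msp-32 and 27.1% for msp-53, and msp-19 and msp-53 share 63.1% of their words with each other. Among all protein-coding genes, 16.5% of windows at or above 95% had an optimal summit and 9.13% of those below. Among the 82 genes, 3 of the 32 windows at or above 95% had an optimal summit and 0 of the 50 below. In the pooled list these counts were 5 of 32 (30.8% of all such windows) and 4 of 50 (21.2%). In replicate 3 they were 8 of 32 (31.8%) and 2 of 50 (19.6%), and in replicate 7 they were 8 of 32 (33.9%) and 4 of 50 (25.2%). All 3 optimal peaks lay in windows at or above 95%, as did 5 of the 9 genes with a pooled summit. Of the 32 windows at or above 95%, 24 were spe- windows, so uniqueness and family cannot be told apart here. Among the windows at or above 95%, 0 of 4 ssp- genes and 0 of 4 nspd- genes had a summit in any list. Over all protein-coding genes, whatever their uniqueness, that share was 37.9%, and with 4 genes per family a count of 0 says little. How reads with several matches were handled is not given in the sources used here, and the part of repeated sequence in the low msp- count was not tested.

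**Figure D3:**
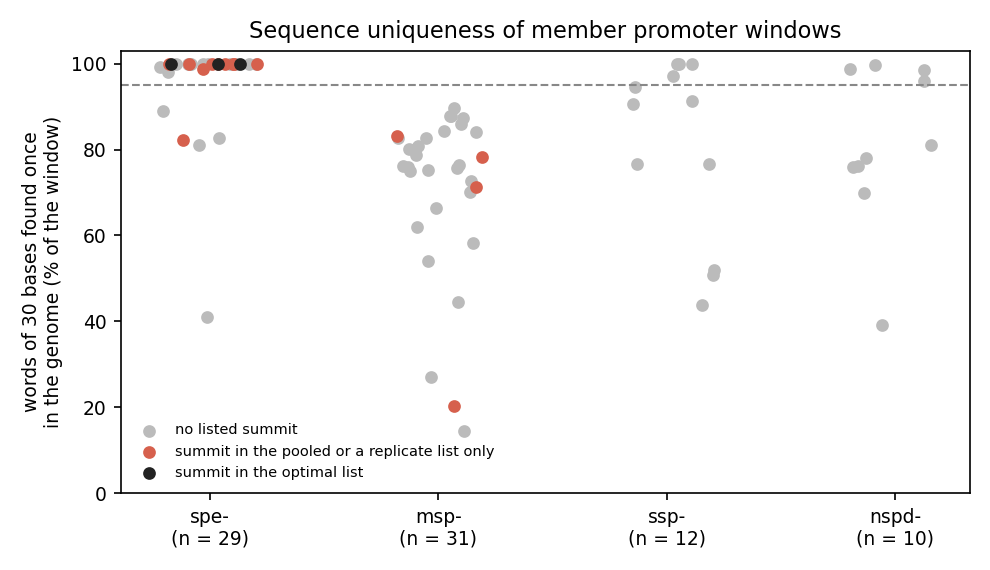
Share of 30-base words in each promoter window that occur once in the genome (percent), with a point per gene spread sideways by family and the dashed line at 95%; black points have an optimal summit, red points a summit in the pooled or a replicate list only and grey points none. Every msp- point lies below the line, from 14.5% to 89.7%, and the 3 black points lie at 100%.

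The msp-, ssp- and nspd- genes also stand in clusters, so the density of peaks around them was counted. Runs of at least 5 such genes no more than 300 kb apart gave 3 clusters, a definition chosen after the data had been seen. The cluster on chromosome II, at 4785898 to 5200180, held 12 of the genes and 33 optimal peaks, or 79.7 per Mb beside 59.0 per Mb for that chromosome. The first cluster on chromosome IV, at 4994371 to 5316906, held 13 of the genes and 7 optimal peaks, or 21.7 per Mb beside 52.2 per Mb for that chromosome. The second, at 9689015 to 10269187, held 14 of the genes and 25 optimal peaks, or 43.1 per Mb. Other protein-coding genes inside the clusters had an optimal promoter summit in 17 of 110 cases (15.5%) on chromosome II, and in 5 of 68 (7.35%) and 11 of 151 (7.28%) in the chromosome IV clusters. The background was 13.3% of protein-coding genes on chromosome II and 14.2% on chromosome IV. The chromosome II cluster thus had optimal peaks at other genes at about that chromosome's share, and both chromosome IV clusters had fewer at other genes too.

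**Figure D4:**
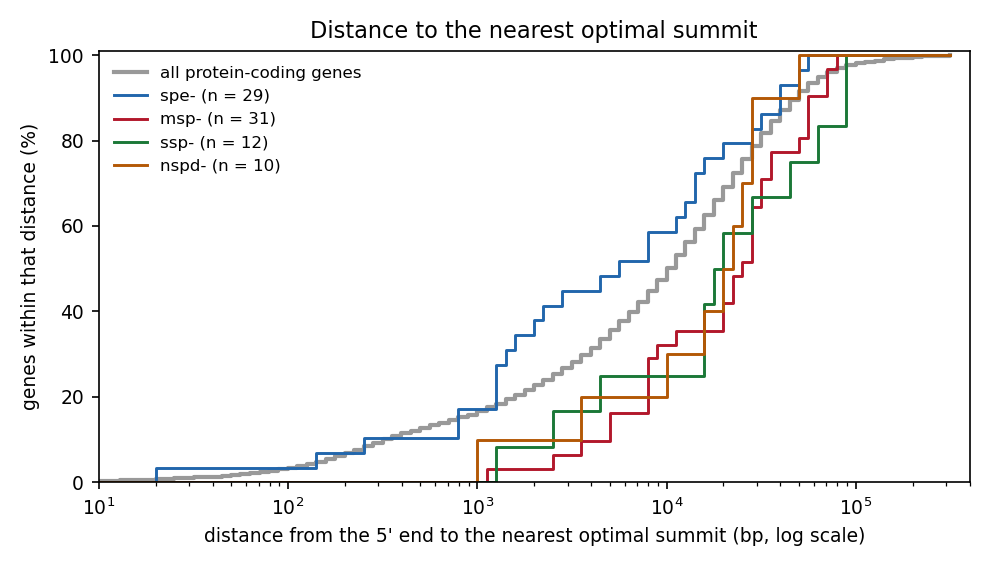
Share of genes (percent) whose 5′ end lies within a given distance, in bp on a log axis, of the nearest optimal summit, by family and for all protein-coding genes. The median is 22563 bp for msp- genes, 18353 bp for ssp- genes, 19495.5 bp for nspd- genes and 5520 bp for spe- genes, beside 9912 bp for all protein-coding genes.

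In the wider surroundings, an optimal summit lay within 5000 bp of the 5′ end of 24 of the 82 genes (29.3%), beside 35.6% of all protein-coding genes. These were 14 of 29 spe- genes (48.3%), 5 of 31 msp- genes, 3 of 12 ssp- genes and 2 of 10 nspd- genes. For 14 genes the nearest optimal summit was outside the window but within 2500 bp (17.1%, beside 10.3% of all protein-coding genes), and 9 of the 14 were spe- genes. In 8 of these it lay in the promoter window of another protein-coding gene, beside 39.3% of the 2067 such genes in the whole annotation. In 3 it lay inside the gene itself (spe-18, spe-6 and spe-9), beside 26.03%. The spe-9 summit, in an intron, also lay in a tRNA gene, so it cannot be assigned to spe-9 alone.

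spe-39 encodes a partner of vesicle-sorting proteins needed to form the membranous organelles of sperm. Its optimal peak at chrV:6785194-6785436 was 243 bp wide, with the summit 141 bp upstream between genes. The signal was 360 (rank 2409 of the optimal list), 252 in replicate 3 (rank 2375) and 108 in replicate 7 (rank 3242). Relative to the median optimal peak these were 1.24 and 0.967, or 1.10 ± 0.192 (SD, n = 2), so both replicates showed a peak of typical strength. The same summit lay 407 bp from the 5′ end of spn-4, which encodes an RNA-binding regulator of translation in the early embryo and is transcribed in the opposite direction. The 5′ ends of spe-39 and spn-4 are 548 bp apart, and spe-39 is the nearer.

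Inside spe- genes, optimal summits also lay beyond the edge of the promoter window. spe-18, needed to assemble MSP into fibrous bodies, had an optimal summit 230 bp downstream of its 5′ end in its own intron, 30 bp beyond the edge of the window. The peak at chrII:13153068-13153246 had a signal of 318 (rank 2807), with relative signals of 0.707 in replicate 3 and 1.53 in replicate 7, or 1.12 ± 0.580 (SD, n = 2). spe-6, which encodes a casein kinase 1-like enzyme needed for fibrous bodies and meiotic divisions, had an optimal summit 732 bp downstream in a coding exon. The peak at chrIII:11506059-11506386 had a signal of 585 (rank 1335), with relative signals of 1.06 and 3.33, or 2.20 ± 1.61 (SD, n = 2). Replicate 7 was the higher at both, and the replicates differed by more at spe-6. The spe-6 summit also lay in the promoter window of Y66D12A.21.

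The bases around these 3 summits are shown as examples of peak sequence in a promoter (spe-39), an intron (spe-18) and a coding exon (spe-6). Each run is 75 bp either side of the summit on the strand of the gene, in WBcel235 (ce11). Capitals mark the 11 bases at the summit for spe-39, and the word TTGCGAAA on either strand for spe-18 and spe-6.
spe-39: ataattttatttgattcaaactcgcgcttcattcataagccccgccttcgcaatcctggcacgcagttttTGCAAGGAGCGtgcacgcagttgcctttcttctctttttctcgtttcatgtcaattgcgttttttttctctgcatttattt
spe-18: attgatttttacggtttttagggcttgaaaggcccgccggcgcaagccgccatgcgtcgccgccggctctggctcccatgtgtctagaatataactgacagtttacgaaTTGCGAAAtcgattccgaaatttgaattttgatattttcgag
spe-6: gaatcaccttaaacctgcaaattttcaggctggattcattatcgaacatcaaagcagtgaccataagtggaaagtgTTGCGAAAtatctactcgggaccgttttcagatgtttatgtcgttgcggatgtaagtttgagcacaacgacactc
They lie at chrV:6785235-6785385 (plus strand), chrII:13153094-13153244 (minus strand) and chrIII:11506145-11506295 (plus strand). TTGCGAAA, a word noticed in earlier results of these data, was found within 50 bp of 14.9% of all optimal summits. It was within 50 bp of the spe-18 and spe-6 summits and not of the spe-39 summit.

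In promoter windows TTGCGAAA was found in 5 of the 82 genes, all of them spe- genes, beside 10.1% of all protein-coding genes. CACGTG, the E-box hexamer, was found in 25 of the 82 (30.5%) beside 18.4% of all protein-coding genes. By family that was 9 msp- genes, 4 ssp- genes, 11 spe- genes and 1 nspd- gene. The C/EBP octamer TTNCGNAA, with A or G as the first N and C or T as the second, was in 5 of 82 beside 5.60%. TGATGCAA, an octamer of the kind bound by C/EBP and ATF dimers, was in 5 of 82 beside 5.13% of all protein-coding genes. The AP-1 heptamers TGACTCA and TGAGTCA were in 4 of 82 beside 11.7%. AGACGCAG, also noticed in earlier results, was in 5 of 82 beside 8.63%, and GAGAGAGA was in 4 of 82 beside 8.70%. Of the 8 motifs searched on both strands, CACGTG at spe-46 was the only match within 50 bp of the 3 optimal promoter summits. No match says only that these letters were not in the stretch searched.

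spe-48, which RefSeq describes as encoding a UBA domain protein, had the strongest peak at any of the 82 promoters. The peak on chromosome I, at 1958259 to 1958776, was 518 bp wide, and its summit lay 20 bp downstream of the 5′ end in the 5′ UTR. The signal was 2743 (rank 99 of the optimal list), 1760 in replicate 3 (rank 104) and 994 in replicate 7 (rank 110). Relative to the median optimal peak it was 8.65 and 8.90, or 8.77 ± 0.178 (SD, n = 2), so the replicates differed little once each was scaled. The summit was shared with Y51F10.11, transcribed in the opposite direction, whose 5′ end lies 200 bp away and 180 bp from that of spe-48. spe-48 is the nearer.

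spe-46, which acts in sperm activation, had a weaker and less even peak. The peak at 9055399 to 9055641 on chromosome I was 243 bp wide, with a signal of 369 (rank 2348). The signal was 301 in replicate 3 (rank 1925) and 42.3 in replicate 7 (rank 10496). Relative to the median optimal peak these were 1.48 and 0.379, or 0.928 ± 0.777 (SD, n = 2), so replicate 7 was far lower. The strongest summit of replicate 7 in this window had a signal of 58.9 (rank 6802) and lay 902 bp upstream, at another position. The optimal summit lay 753 bp upstream of spe-46, but 83 bp from the 5′ end of hgo-1, which encodes homogentisate dioxygenase of tyrosine breakdown. It also lay 278 bp from an snRNA gene, sls-2.6. CACGTG lay 12 bp from the summit. Without replicate 3, the strongest peaks of replicate 7 held no summit for spe-46, and the 4 genes with one included spe-48, spe-39 and spe-5.

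Each of the 3 optimal promoter summits was therefore shared with a neighbour transcribed in the opposite direction. Over all protein-coding genes with an optimal summit, 1227 of 2980 (41.2%) had only shared summits. With each summit given to the nearest 5′ end alone, spe-48 and spe-39 remained and spe-46 did not. The spe-46 and spe-39 summits lay between the paired 5′ ends, and the spe-48 summit lay inside spe-48. These data do not show which gene of a pair a peak acts on.

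**Figure D5:**
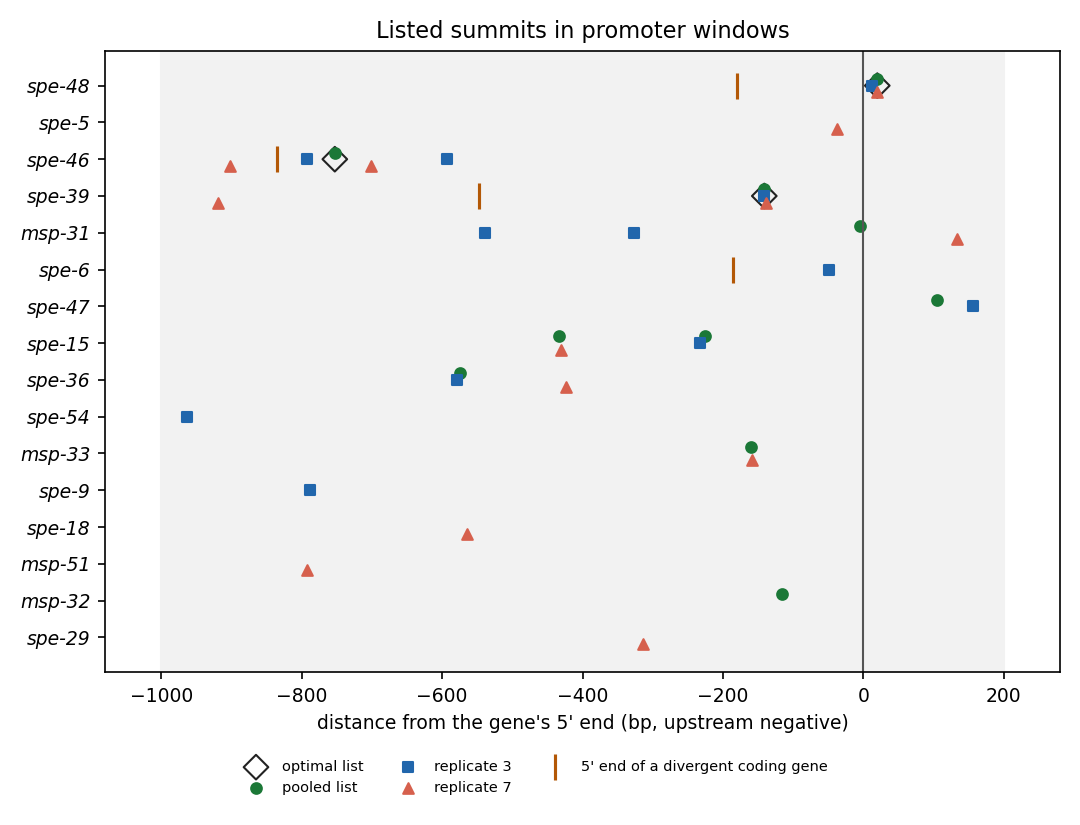
Position of every listed summit in the promoter windows of 16 of the 17 genes, in bp from the 5′ end with upstream negative, by peak list, with orange bars at the 5′ end of a divergent protein-coding gene within 1000 bp. The lists coincide at spe-48 and spe-39, the replicate 7 points of spe-46 lie off the optimal summit, and at most other genes the points belong to 1 list or lie apart.

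By role, the sperm assembly genes had 1 optimal summit among 9 (spe-39) and a summit in any list in 5 of 9, beside 14.9% and 37.9% of all protein-coding genes. In addition to spe-39 these were spe-5, a subunit of the vacuolar proton pump, spe-15, a myosin VI, spe-6 and spe-18. The sperm activation genes had 1 optimal summit among 8 (spe-46) and a summit in any list in 3 of 8, near those shares of all genes, the others being spe-47 and spe-29. The fertilisation genes had no optimal summit among 8. A summit in any list was found for 3 of 8, again near the share of all genes, among them spe-36, a secreted protein with an EGF motif, and spe-9, an EGF-repeat membrane protein. Among the sperm assembly genes with no summit in any list were spe-4 (a presenilin), spe-10 (a palmitoyltransferase) and spe-26 (a kelch protein). The same held for the activation genes spe-8 (a tyrosine kinase), spe-12, spe-19, spe-27 and spe-43. It also held for the fertilisation genes spe-38, spe-41 (a TRP calcium channel), spe-42, spe-49 and spe-51, for spe-11, a sperm-supplied factor for the embryo, and for the regulator spe-44. The roles were assigned with the counts known.

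The pooled list added 3 spe- genes below the optimal list, all weak. The pooled signal was 43.6 for spe-47 (rank 17761, 105 bp downstream in its intron), 42.1 for spe-36 (rank 18253, 575 bp upstream) and 38.97 for spe-15 (rank 19234, 433 bp upstream). All 3 were below the pooled median of 54.1, and the spe-36 summit lay in a coding exon of another gene. Each of these summits had a replicate summit within 100 bp in only 1 list, replicate 3 for spe-47 and spe-36 and replicate 7 for spe-15. A second pooled summit of spe-15, with a signal of 30.9 at 225 bp upstream, was matched in replicate 3 alone. A summit anywhere in the window in both replicate lists was found for 6 of the 82 genes (7.32%), beside 23.9% of all protein-coding genes. Those were spe-48, spe-46, spe-39, spe-36, spe-15 and msp-31. In only the 3 optimal genes did the replicate summits lie within 100 bp of each other.

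Beyond spe-18 and spe-6, the nearest optimal summits outside a window belonged to nspd-5, msp-33 and ssp-16. For nspd-5 the summit lay 937 bp downstream between genes, with a signal of 228 (rank 3945) and a relative signal of 0.858 ± 0.726 (SD, n = 2). For msp-33 it lay 1014 bp downstream in a coding exon of gst-9, a glutathione S-transferase gene whose promoter window holds it, with a signal of 253 (rank 3561) and a relative signal of 0.926 ± 0.612 (SD, n = 2). For ssp-16 it lay 1133 bp downstream between genes, with a signal of 168 (rank 5285), and was matched in replicate 3 alone at a relative signal of 0.692. All 3 signals were below the optimal median of 299.

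A list of 36 other symbols linked to spermatogenesis was scored in the same way. It included genes for sex determination of the germ line, sperm motility and sperm activation, and was not limited to these. Of the 36 symbols, 34 matched the annotation, as 35 genes, since msd-1 is carried by 2. An optimal promoter summit was found for 4 of the 35 (11.4%, beside 14.9% of all protein-coding genes), and a pooled summit for 7 (20.0%, beside 28.8%). wee-1.3, a Myt1-type kinase that restrains meiotic division, had a relative signal of 0.982 ± 0.363 (SD, n = 2) 378 bp upstream. fem-1, an ankyrin-repeat protein of male sex determination, had 0.873 ± 0.0147 (SD, n = 2) 408 bp upstream at a summit shared with drp-1. snf-10, a transporter-family protein of sperm activation, had 0.572 ± 0.343 (SD, n = 2) 900 bp upstream at a summit shared with pap-1. fem-2, a protein phosphatase of male sex determination, had 0.571 ± 0.336 (SD, n = 2) 107 bp upstream. None of the 4 exceeded the median optimal peak in its mean. spe-46 (0.928) was below it too, spe-39 (1.10) was near it, and only spe-48 (8.77) was far above it. By signal in the optimal list, wee-1.3 (335) was above the list median of 299, and fem-1, snf-10 and fem-2 were below it.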

How the data were processed

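ChIP-seq peak lists of CEBP-1 in 2 replicates of 1 group were used as deposited, on ce11. The authors' signal value per peak ranked and described peaks within a list, and the deposited −log10 q-values are the authors' own. The deposited optimal and pooled lists combine both replicates, and each replicate list is named, per the file names given by the submitters, as peaks and background for IDR (irreproducible discovery rate, a replicate-agreement filter). The peak caller, control and IDR threshold are not given in the sources used here. Depth is unknown, so no counting interval is given for a signal. Mitochondrial peaks were left out.

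Gene 5′ ends and annotation came from Ensembl release 115 (WBcel235) and sequence from RefSeq's genome of that build. Windows ran from 1000 bp upstream to 200 bp downstream (1201 bp). A replicate signal is the strongest summit within 100 bp of the optimal summit, divided by that replicate's median at optimal peaks. Optimal peaks without such a summit were left out of the median. Overlap and word counting were tested on simulated data. Python 3.11.15, pandas 2.3.3, NumPy 2.4.6 and SciPy 1.17.1 were used. No significance test was run, since there is 1 group, and counts are set beside all protein-coding genes. Wilson 95% intervals cover counting only.

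Named were genes with an optimal summit, the 5 per family with the highest pooled signal, the 5 nearest outside the window, other spermatogenesis genes with an optimal summit, and genes sharing a summit. spe-5, spe-15, spe-29, spe-54, spe-9, msp-51, the genes of each role, ssp-35, tbb-6, F37F2.2, and the msp- genes whose sequences are shown were chosen after their values were seen. Some genes are counted but their own values are not reported here. The genes and lists were chosen with earlier results of these data known. Alternatives changed windows, 5′ ends, peak thresholds, replicates, match distances and word length.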

Additional observations from a re-analysis of the deposited data

How the results depend on the processing

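Of 37 recomputed values, 25 stayed close to those reported and 12 moved. The 3 genes with an optimal summit became 8 in the wide window (2000 bp upstream to 500 bp downstream), with spe-18, spe-36, spe-5 and spe-54 among those added, beside 19.8% of all protein-coding genes. They became 5 when any overlap of the peak counted, which added spe-18 and spe-54. Leaving out a replicate gave 3 to 4 genes, and without replicate 3 the 4 genes included spe-39, spe-48 and spe-5 but not spe-46. The 9 genes of the pooled list became 14 in the wide window and 3 among the top 15000 peaks. The 6 genes with summits in both replicates became 3 in the narrow window, 10 in the wide window, 3 with summits within 100 bp and 3 among the top 15000 peaks of each replicate. The 3 shared optimal peaks became 7 in the wide window. The 3 shared pooled peaks became 11 in the wide window and 5 with the 5′ end of any transcript. The relative signal of spe-48 was 8.27 with matches within 50 bp. spe-46 gave no value within 50 bp, because no replicate 7 summit lay that close. Shares of all protein-coding genes are not given for the any-overlap, pooled, both-replicate and shared-peak settings. Whether those counts moved with the share of all genes therefore cannot be told. Wider windows admit more peaks by construction. The cause of other moves was not tested.

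No paired analysis was possible because the series holds 1 group. With 2 replicates, an SD rests on 2 values. Depth is unknown, so the absence of a listed summit does not show absence of binding.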

Other observations

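spe-5, which encodes a subunit of the vacuolar proton pump, had a summit in replicate 7 alone, 38 bp upstream of its 5′ end. Its signal was 188 (rank 1611), 1.68 times the replicate's median at optimal peaks, and neither the pooled list nor replicate 3 had a summit within 100 bp. Of the 5982 strongest peaks of replicate 7, 886 (14.8%) had no pooled summit that close, beside 426 (7.12%) of those of replicate 3.

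The strongest optimal peaks within 2500 bp of any of these genes outside their windows stood at neighbours. One of rank 36 lay 2253 bp from ssp-35 at the beta tubulin gene tbb-6, with a relative signal of 15.7 ± 4.65 (SD, n = 2). One of rank 66 lay 2213 bp from spe-15 at F37F2.2, with a relative signal of 10.8 ± 0.603 (SD, n = 2). TTGCGAAA lay within 50 bp of both summits, beside 14.9% of all optimal summits. Most of the 14 nearest optimal summits outside a window but within 2500 bp did not have it. The word was noticed in earlier results of these data, so its presence here is no test.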
